A study of Mus musculus with 4 samples.

Results

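Receptor tyrosine kinases are single-pass membrane receptors that work as pairs, formed when a ligand binds or, as for INSR, IGF1R and DDR1, present before it. The paired kinases phosphorylate each other inside the cell and pass the signal to adaptor proteins, RAS, PI3-kinase and phospholipase C. Earlier results of these data were known when the 8 receptor genes described here were chosen, with no measured value in the rule. They were chosen by gene symbol from 45777 genes in the files and lie outside the ERBB family (the EGF receptor and its relatives). They are Met, the receptor of hepatocyte growth factor (HGF), its relative Mst1r (also called RON), the receptor of macrophage-stimulating protein (MSP), the fibroblast growth factor (FGF) receptors Fgfr1, Fgfr2 and Fgfr3, the insulin-like growth factor receptor Igf1r, the insulin receptor Insr, and the collagen receptor Ddr1. In stomach and other epithelia HGF and FGF ligands mostly come from the neighbouring mesenchyme, the FGFR2 splice form with exon IIIb binds mesenchymal FGFs, and discoidin domain receptors bind collagen, a matrix protein, rather than a soluble factor. Several of these receptors, MET and FGFR2 above all, are amplified in a share of human gastric cancers.

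RNA sequencing of mouse gastric organoids compared 2 libraries labelled Control with 2 labelled Smad4 Knockout. All 4 organoid lines carry knockouts of Cdh1, which encodes E-cadherin, and of Trp53, which encodes p53, so the controls are Cdh1 and Trp53 knockout lines and the other group adds the knockout of Smad4, the shared partner of the SMAD proteins of TGF-beta and BMP signalling. Each library is a separately named line (Control 1 and 2, Smad4 Knockout 1 and 2 in the order of the samples), grown with serum and L-WRN conditioned medium and then kept for 2 days in medium with B27 and N2 that lacked serum and L-WRN medium before harvest. Neither the animals behind the lines nor a descent of the knockouts from the controls is given in the labels, nor are age, strain or the tool that made the knockouts, so p-values measure the spread between these libraries only. The question of the comparison was what the loss of Smad4 adds to the Cdh1 and Trp53 knockout.

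Libraries held from 85649781 to 99845702 counts. Smad4 was at 94.5 and 103 CPM in control organoids, with 54.4 and 52.9 CPM in Smad4 knockouts. CPM is the count of a gene scaled by the size of its library. The log2 difference of Smad4 was -0.88 (SE 0.10, edgeR unadjusted p = 0.000163, edgeR adjusted p = 0.677). Here and in what follows the log2 difference, or log2 fold change, is Smad4 Knockout minus Control as fitted by edgeR with its standard error (SE), and p-values were adjusted by Benjamini-Hochberg over all 18115 genes that passed a filter on low counts, with a call at 0.05. DESeq2 gave Smad4 the same difference with an adjusted p of 4.79e-08. The mean in the knockouts was 54.2% of that in the controls. The labels do not say which part of Smad4 was removed. Transcript outside such a part would still be counted, but whether this holds here was not tested. Epithelial keratins were abundant, with Krt8, Krt18 and Krt19 at a mean of 3126, 2828 and 2085 TPM (a transcript share scaled to a fixed library total and corrected for gene length). The gastric list summed to between 8622 and 9408 TPM, most of it from these keratins. Its member Pgc, which encodes pepsinogen C, was at 0 counts in every library. Muc5ac and Muc6 were near 0, at a mean of 0.216 and 0.0123 TPM, while Tff1, Tff2 and Gkn1 were at 113, 65.9 and 10.4 TPM. DESeq2 called 3 genes of the list, Tff1, Tff2 and Gkn1, all higher in the knockouts, against 0.724% of its 18375 genes, and edgeR called 0. The mucin, Tff and Gkn genes were named after their values were seen. The 9 fibroblast markers together reached from 0.821 to 1.65 TPM, with Acta2, Pdgfra and Col1a1 the highest and Lum and Pdgfrb at 0 counts throughout. The 6 endothelial markers reached from 1.06 to 1.73 TPM (Kdr, Pecam1 and Tie1 highest, Emcn at 0 counts), and the 7 immune markers from 4.68 to 5.39 TPM (Cd68, Ptprc and Csf1r highest, Cd3e at 0 counts).

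Met was the most abundant of the receptors and, with Ddr1, took most of their transcript in every library. Met was at 55.2 and 60.4 TPM in Control 1 and 2 and at 64.9 and 57.7 TPM in Smad4 Knockout 1 and 2, which was between 49.9% and 52.5% of the summed TPM of the 8 genes. Ddr1 followed at 29.1 and 29.6 TPM in the controls and at 30.3 and 23.8 TPM in the knockouts. Among 40 receptor tyrosine kinases listed here, all outside the ERBB and Eph families, Met ranked 2 by mean TPM, behind the Wnt coreceptor Ryk, and Ddr1 ranked 6.

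Below them, the order of the receptors was less sharp. Insr (from 7.41 to 10.5 TPM) and Igf1r (from 5.23 to 11.3 TPM) overlapped, with Insr above Igf1r in 3 of 4 libraries. Mst1r (from 3.99 to 5.1 TPM) overlapped with Fgfr2 (from 1.81 to 6.67 TPM), and Fgfr2 with Fgfr3 (from 1.88 to 2.17 TPM). Fgfr1 was lowest, from 0.618 to 1.15 TPM, below Fgfr3 in all 4 libraries. Met and Ddr1, Ddr1 and Insr, Igf1r and Mst1r, and Fgfr3 and Fgfr1 had ranges that did not overlap, while the neighbours Insr and Igf1r, Mst1r and Fgfr2, and Fgfr2 and Fgfr3 did not differ beyond theirs.

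**Figure D1:**
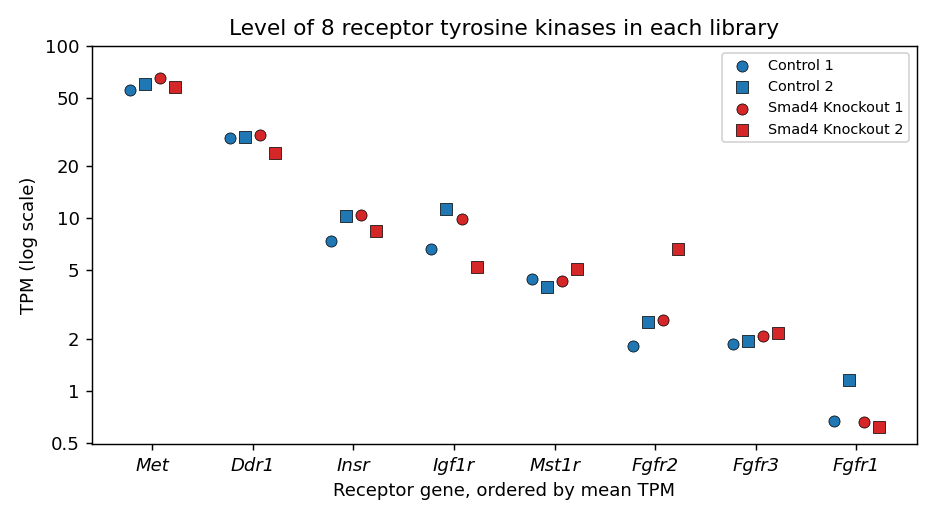
Level of each receptor in the 4 libraries, in TPM on a log scale; each point is 1 library, blue for Control and red for Smad4 Knockout. Met and Ddr1 stand above the rest in every library, and Fgfr2 in Smad4 Knockout 2 (6.67 TPM) stands apart from the other 3 libraries.

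The summed TPM of the 8 genes was 107 and 121 in control organoids, with 125 and 110 in Smad4 knockouts. The group means, 114 ± 9.95 TPM (SD, n = 2) and 118 ± 10.9 TPM (SD, n = 2), differed by less than the spread within a genotype. No test was run on this sum, since with 2 libraries a genotype the exact permutation p has too few steps to pass 0.05.

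None of the 8 receptors passed the test between the genotypes. With edgeR's quasi-likelihood test 0 of 8 were called and 0 had an unadjusted p under 0.05, against 0% of 18115 genes called in either direction and 6.36% with an unadjusted p under 0.05 (3.33% higher and 3.04% lower in the knockouts). DESeq2 called 0 of the 8, where it called 0.724% of its 18375 genes, and limma on log2(TPM + 1) called 0 of 13277 genes, which included 7 of the 8 but not Fgfr1, under its minimum level. The median log2 fold change of the 8 was 0.06, and that of all genes tested was 0.00. In 1 of the 8 genes, Fgfr1, the libraries of the 2 genotypes did not overlap by CPM, with the knockouts lower. Of all genes tested, 36.9% were without overlap by CPM, and 18.6% were so with the knockouts lower. All 8 passed the filter on low counts. In bulk samples such as these, fewer cells of a type and less RNA per cell cannot be told apart. RefSeq places non-coding genes over Met, Fgfr1, Igf1r and Ddr1, and each had at most 17 counts summed over the 4 libraries.

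**Figure D2:**
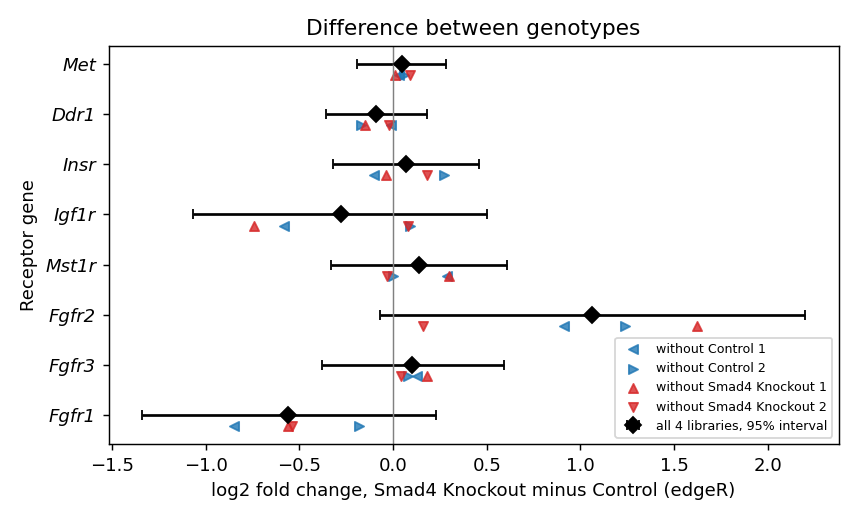
Log2 fold change of each receptor, Smad4 Knockout minus Control, from edgeR; diamonds are the fit on all 4 libraries with its 95% interval, and triangles are fits with 1 library left out. All 8 intervals include 0, and the value of Fgfr2 ranges from 0.16 without Smad4 Knockout 2 to 1.62 without Smad4 Knockout 1.

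Met (gene ID 17295, chromosome 6, 17463349 to 17573980, build mm10, as for all positions given here) varied least. It was at 236 and 241 CPM in control organoids, with 252 and 241 CPM in Smad4 knockouts, so that the highest library was 1.07 times the lowest. The genotypes overlapped (log2 difference 0.05, SE 0.09, edgeR adjusted p = 0.995). The 95% interval of the fold change, from 0.879 to 1.21, leaves out a change of Met by a factor of 1.5 in either direction.

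Mst1r (gene ID 19882, chromosome 9, 107906858 to 107920383) had values of 13.4 and 11 CPM in control organoids, with 11.8 and 15 CPM in Smad4 knockouts. The genotypes overlapped, with the highest library a knockout and the lowest a control (log2 difference 0.14, SE 0.19, edgeR adjusted p = 0.977), and the value turned to -0.03 without Smad4 Knockout 2. On the TPM scale Met was 12.5 and 15.2 times Mst1r in the controls and 15 and 11.3 times Mst1r in the knockouts. The log2 ratio of Met to Mst1r differed by -0.08 between the genotypes, less than its SD of 0.20 in the controls and 0.29 in the knockouts.

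Transcripts of the ligands of both receptors were at or near 0. Hgf had 25 counts in Control 1 and 0 in the other 3 libraries, and Mst1, which encodes MSP, had 4 and 8 counts in the controls and 0 in the knockouts. By counting error alone, a gene with 0 counts could still have a true level of up to 3 counts in that library. Both ligands are secreted as inactive precursors that serine proteases cut. Of the list of 9 such genes 6 passed the filter, of which 0 were called by edgeR, by DESeq2 or by limma. At an unadjusted p under 0.05, 1 was higher and 1 lower, against 3.33% and 3.04% of all genes tested. The membrane protease St14 (matriptase) was at a mean of 98.4 TPM, and the inhibitors of these proteases, Spint1 and Spint2, were at 107 and 235 TPM. Hpn (hepsin) had values of 27.7 and 28 CPM in control organoids, with 21.8 and 21.3 CPM in Smad4 knockouts (log2 difference -0.37, SE 0.12, edgeR adjusted p = 0.681). Tmprss2, another membrane serine protease, was at 159 and 151 CPM, with 185 and 266 CPM in Smad4 knockouts (0.54, SE 0.18, edgeR adjusted p = 0.697), and at 0.27 without Smad4 Knockout 2. In both genes the genotypes did not overlap, as in 4 of the 6 tested, against 36.9% of all genes tested.

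Fgfr2 had the largest difference between the genotypes among the 8 receptors, and it came from 1 library. Fgfr2 (gene ID 14183, chromosome 7, 130162451 to 130266808) had 581 and 695 counts in control organoids, with 643 and 1998 in Smad4 knockouts, or 5.93 and 7.5 CPM for the controls and 7.44 and 20.6 CPM for the knockouts. By CPM Smad4 Knockout 1 lay between the controls, and Smad4 Knockout 2 was 2.77 times Smad4 Knockout 1, so the genotypes overlapped. On the TPM scale they did not, as Smad4 Knockout 1, at 2.59, lay just above the controls, at 1.81 and 2.52. Averaged by genotype, Control had 6.71 ± 1.11 CPM and Smad4 Knockout 14 ± 9.32 CPM (SD, n = 2 each), with a log2 fold change of 1.06 (SE 0.46, 95% interval of the fold from 0.954 to 4.58, edgeR adjusted p = 0.802). Without Smad4 Knockout 2 the value was 0.16. Without Smad4 Knockout 1 it was 1.62 and passed the test (edgeR adjusted p = 0.0429), in a fit that called 0.479% of 19190 genes and takes the lone knockout library to vary like the controls. Smad4 Knockout 2 also had the highest share of mitochondrial counts (1.48%, against 0.941% to 1.18% in the others). Its share of ribosomal RNA was highest too (0.562%, against 0.242% to 0.389%). Its summed gastric markers, at 9065 TPM, lay within the range of the others, but keratins make up most of that sum. Gkn1 was highest in Smad4 Knockout 2 (26 TPM, against 3.45 to 8.2 in the others), as was Tff1 (204 TPM, against 55.5 to 113). Tff2 was highest in Smad4 Knockout 1 (113 TPM, with 65 in Smad4 Knockout 2). The part of these in the level of Fgfr2 was not tested.

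The sequences before the start sites are shown for Fgfr2, the receptor with the largest difference between genotypes, and for Igf1r, described further on, which after Fgfr2 had the widest range over the 4 libraries. Of the 8 receptors, 6 had an entry in the RefSeq promoter table. Both are the 250 bases upstream of the RefSeq start site in build GRCm38.p6, in the direction of the gene. Fgfr2 lies on the minus strand (chr7:130266809-130267058) and Igf1r on the plus strand (chr7:67952007-67952256), and capitals mark CAGAC or its reverse complement GTCTG, a core to which SMAD proteins can bind.
Fgfr2: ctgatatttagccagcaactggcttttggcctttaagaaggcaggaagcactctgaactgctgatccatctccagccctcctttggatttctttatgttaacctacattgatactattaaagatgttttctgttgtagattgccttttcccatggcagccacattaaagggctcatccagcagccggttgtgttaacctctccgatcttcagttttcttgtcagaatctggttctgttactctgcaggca
Igf1r: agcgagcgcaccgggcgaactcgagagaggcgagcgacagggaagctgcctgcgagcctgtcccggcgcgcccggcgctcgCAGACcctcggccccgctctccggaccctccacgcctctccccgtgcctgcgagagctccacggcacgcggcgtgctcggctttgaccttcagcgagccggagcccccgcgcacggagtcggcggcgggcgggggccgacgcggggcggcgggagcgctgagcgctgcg
The Fgfr2 stretch held 0 matches, with a GC content of 44% and 2 CpG dinucleotides. The Igf1r stretch held 1 match, 169 bases before the start, with a GC content of 77.6% and 42 CpG dinucleotides. Over 32851 such stretches in the RefSeq set, 42.2% held at least 1 match, and the medians were a GC content of 52.4% and 6 CpG dinucleotides. These letters describe the windows only, and no binding was measured.

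Fgfr1 and Fgfr3 did not share the high level of Fgfr2 in Smad4 Knockout 2. Fgfr1 (gene ID 14182, chromosome 8, 25518759 to 25575718) had 212 and 320 counts in control organoids, with 166 and 184 in Smad4 knockouts, or 2.16 and 3.45 CPM for the controls and 1.92 and 1.9 CPM for the knockouts. Both knockout libraries lay below both controls, but the gap to Control 1 was small and Control 2 was 1.6 times Control 1 (log2 difference -0.56, SE 0.32, 95% interval -1.34 to 0.23, edgeR adjusted p = 0.85). The value was -0.18 without Control 2 and -0.85 without Control 1. Fgfr3 (gene ID 14184, chromosome 5, 33721724 to 33737068) had values of 4.94 and 4.77 CPM in control organoids, with 4.93 and 5.5 CPM in Smad4 knockouts, a highest to lowest ratio of 1.15 (log2 difference 0.10, SE 0.20, edgeR adjusted p = 0.993).

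The balance of the FGF receptors differed most in Smad4 Knockout 2. Fgfr4, the remaining FGF receptor kinase, was included here. Fgfr2 made up 29.5% and 32.1% of the FGF receptor TPM in the controls, 37.9% in Smad4 Knockout 1 and 60.5% in Smad4 Knockout 2. Fgfr4 made up 28.8% and 28.5% in the controls, 22% in Smad4 Knockout 1 and 14.3% in Smad4 Knockout 2. Fgfr4 was at 3.57 and 4.25 CPM in control organoids, with 2.71 and 3.13 CPM in Smad4 knockouts (log2 difference -0.42, SE 0.24, edgeR adjusted p = 0.849). The summed TPM of these FGF receptors was 6.12 and 7.86 in control organoids, with 6.85 and 11 in Smad4 knockouts. The ratio of Fgfr1 to Fgfr2 was 0.371 and 0.455 in control organoids, with 0.255 and 0.0926 in Smad4 knockouts, a difference of -1.42 in log2 with both knockouts below both controls. The SD of that log2 ratio was 0.21 in the controls and 1.03 in the knockouts, and the difference was -0.69 without Smad4 Knockout 2. The ratio of Fgfr3 to Fgfr2 was 1.04 and 0.771 in control organoids, with 0.804 and 0.325 in Smad4 knockouts, where the genotypes overlapped.

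**Figure D3:**
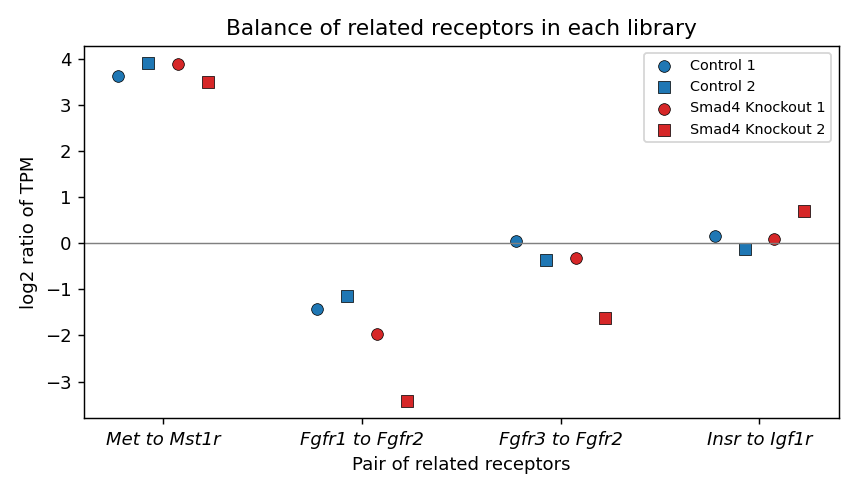
Log2 ratio of TPM between related receptors in each library, blue for Control and red for Smad4 Knockout; 0 means equal levels. The ratio of Fgfr1 to Fgfr2 is lowest in Smad4 Knockout 2 (-3.43), and the ratio of Insr to Igf1r is highest there (0.70).

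FGF ligands were scarce as well. Of 18 FGF genes, 8 had 0 counts in every library, Fgf10 among them, and 6 passed the filter. All 6 had a log2 fold change above 0 (median 0.35), as did 8974 of the 18115 genes tested. By edgeR, DESeq2 or limma 0 were called, where DESeq2 called 0.724% of its 18375 genes. At an unadjusted p under 0.05 there were 0, against 6.36% of all genes tested. Not all 6 stayed above 0 with 1 library left out. Without Control 1 the median was 0.09, with Fgf7 at -0.31 and Fgf18 at -0.07. Without Control 2 the median was 0.61, with Fgf5 at -0.58. The filter was run anew in each of these fits, so such medians can rest on other genes than the 6. Fgf5 and Fgf7, scarce ligands, were named after their values were seen. Fgf1, which can bind every FGF receptor, was the only one above a mean of 1 TPM, at 9.27 and 13.6 CPM in control organoids, with 12.4 and 15.9 CPM in Smad4 knockouts (log2 difference 0.31, SE 0.24, edgeR adjusted p = 0.904). Its value ran from 0.06 without Control 1 to 0.61 without Control 2. Fgf9 and Fgf18 were at a mean of 0.675 and 0.831 TPM. The genotypes overlapped for Fgf1.

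Among 16 FGF coreceptors, carriers of heparan sulfate and binding proteins, 15 passed the filter, 6 above and 9 below 0 (median -0.06). Of these 0 were called by edgeR, by DESeq2 or by limma. At an unadjusted p under 0.05, 1 was higher and 2 lower, against 3.33% and 3.04% of all genes tested. The syndecans Sdc1 and Sdc4 and the secreted FGF carrier Fgfbp1 were the most abundant, at a mean of 297, 256 and 235 TPM. The genes with the smallest p were Gpc1, a glypican, at 99 and 99.8 CPM in control organoids, with 79.8 and 67.4 CPM in Smad4 knockouts (log2 difference -0.43, SE 0.12), and Fgfrl1, an FGF receptor without a kinase domain, at 29 and 33.2 CPM, with 23.4 and 19.1 CPM in Smad4 knockouts (-0.55, SE 0.15). Both had an edgeR adjusted p of 0.677. Sulf2, which trims sulfate from heparan sulfate and was named after its value was seen, was the gene with an unadjusted p under 0.05 in the other direction, at 9.13 and 9.85 CPM, with 13 and 22.7 CPM in Smad4 knockouts (log2 difference 0.91, SE 0.27, edgeR adjusted p = 0.677, and 0.47 without Smad4 Knockout 2). Like Fgfr2, Sulf2 was highest in Smad4 Knockout 2. By CPM the genotypes did not overlap for Sulf2, as in 53.3% of the 15 genes and 36.9% of all genes tested.

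Esrp1 and Esrp2, splicing factors that favour the epithelial IIIb form of FGFR2, were at a mean of 52.8 and 23.4 TPM. The list of 4 splicing regulators had 0 genes called by edgeR, by DESeq2 or by limma. At an unadjusted p under 0.05 there were 0, against 6.36% of all genes tested. Log2 fold changes of the list ran from 0.01 to 0.22. Esrp2 was at 47.8 and 43.9 CPM in control organoids, with 48.2 and 58.7 CPM in Smad4 knockouts (log2 difference 0.22, SE 0.14, with 0.08 without Smad4 Knockout 2 and 0.36 without Smad4 Knockout 1), and Ptbp1 had the highest level at 144 TPM. The files give 1 value per gene, so the IIIb and IIIc forms of the FGF receptors were not analysed here.

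Igf1r and Insr differed more between libraries of the same genotype than between genotypes. Igf1r (gene ID 16001, chromosome 7, 67952257 to 68233668) had values of 50.8 and 81.1 CPM in control organoids, with 69.2 and 39.4 CPM in Smad4 knockouts. Control 2 was 1.6 times Control 1, and Smad4 Knockout 2 was 0.57 times Smad4 Knockout 1, so that each genotype held a high and a low library. Averaged by genotype, Control had 65.9 ± 21.4 CPM and Smad4 Knockout 54.3 ± 21 CPM (SD, n = 2 each), with a log2 fold change of -0.28 (SE 0.32, 95% interval -1.07 to 0.50, edgeR adjusted p = 0.964). The direction turned without Control 2 (0.09) or without Smad4 Knockout 2 (0.08).

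Insr (gene ID 16337, chromosome 8, 3150922 to 3279649) had the same 2 high libraries with a smaller spread, at 44.7 and 58.1 CPM in control organoids, with 57.8 and 50.1 CPM in Smad4 knockouts. Its log2 fold change was 0.07 (SE 0.16, 95% interval -0.32 to 0.46, edgeR adjusted p = 0.995), and it turned to -0.10 without Control 1 and to -0.04 without Smad4 Knockout 1. The ratio of Insr to Igf1r, receptors that can also pair as hybrids, was 1.12 and 0.913 in control organoids, with 1.07 and 1.62 in Smad4 knockouts. The mean log2 ratio was 0.02 ± 0.21 (SD, n = 2) and 0.40 ± 0.43 (SD, n = 2), and the genotypes overlapped.

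Ligand transcripts of these receptors were at or near 0 counts, while 3 of the 7 IGF binding proteins of the list were abundant. Igfbp2, Igfbp5 and Igfbp6 had 0 counts in every library, and Igfbp1 had 4 and 15 counts in the controls and 0 in the knockouts. Igf1, Ins1 and Ins2 had 0 counts in every library, and Igf2 had 12 and 10 counts in the knockouts and 0 in either control. Of the list of 15 ligands, binding proteins and related genes 6 passed the filter, 5 of them below 0 (median -0.45). The median was -1.07 without Smad4 Knockout 1, -0.43 without Smad4 Knockout 2 and -0.21 without Control 2. The filter was run anew in each of these fits, so such medians can rest on other genes than the 6. With all libraries 0 of the 6 were called by edgeR or limma and 2 by DESeq2, and 3 were lower at an unadjusted p under 0.05. Those 3 were the IGF binding proteins Igfbp3, Igfbp4 and Igfbp7, and for each both knockout libraries lay below both controls. Over all genes tested 18.6% had the knockouts lower without overlap and 3.04% were lower at an unadjusted p under 0.05. DESeq2 called 0.724% of its 18375 genes.

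Igfbp7 was at 228 and 198 CPM in control organoids, with 132 and 44.5 CPM in Smad4 knockouts, lowest in Smad4 Knockout 2 (log2 difference -1.27, SE 0.46, edgeR adjusted p = 0.74). Without Smad4 Knockout 1 the value was -2.26, and without Smad4 Knockout 2 it was -0.68. Igfbp3, the main carrier of IGFs in blood, was at 185 and 180 CPM, with 134 and 87.1 CPM in Smad4 knockouts (-0.73, SE 0.20, edgeR adjusted p = 0.677, DESeq2 adjusted p = 0.0346), and at -0.44 without Smad4 Knockout 2. Igfbp4 was at 127 and 111 CPM, with 87.9 and 72.7 CPM in Smad4 knockouts (-0.57, SE 0.14, edgeR adjusted p = 0.677, DESeq2 adjusted p = 0.0367). In all 3 genes Smad4 Knockout 2 was the lowest library. Igf2r, which clears IGF2 and does not signal through a kinase, was at 547 and 636 CPM, with 570 and 525 CPM in Smad4 knockouts (log2 difference -0.11, SE 0.12).

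Ddr1 (gene ID 12305, chromosome 17, 35681567 to 35704741) had values of 75.2 and 67.8 CPM in control organoids, with 69.6 and 64.6 CPM in Smad4 knockouts. The genotypes overlapped, with Smad4 Knockout 2 lowest (log2 difference -0.09, SE 0.11, 95% interval -0.36 to 0.18, edgeR adjusted p = 0.969). Ddr2, the other discoidin domain receptor, was at most at 0.104 TPM. Of 9 collagen chains that discoidin domain receptors can bind, 7 passed the filter, 6 of them below 0 (median -0.86). Only Col4a1, Col4a2 and Col8a1 had a mean of at least 1 TPM. Their median was 0.00, with Col8a1 at -0.86. With 1 library left out the median ran from -1.27 without Smad4 Knockout 1 to -0.25 without Smad4 Knockout 2. The filter was run anew in each of these fits, so such medians can rest on other chains than the 7. With all libraries 0 of the 7 were called by edgeR or limma. At an unadjusted p under 0.05, 2 were lower, against 3.04% of all genes tested. DESeq2 called 1, against 0.724% of its 18375 genes.

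The abundant collagen IV chains overlapped between the genotypes, whereas Col8a1 and Col5a1 had each knockout library under each control. The latter held in 4 of the 7 chains tested, against 18.6% of all genes tested. Col4a1 was at 338 and 350 CPM in control organoids, with 347 and 339 CPM in Smad4 knockouts, and Col4a2 at 118 and 145 CPM, with 137 and 130 CPM in Smad4 knockouts. Col8a1, a short-chain collagen, was at 321 and 273 CPM, with 203 and 123 CPM in Smad4 knockouts (log2 difference -0.86, SE 0.24, edgeR adjusted p = 0.677, DESeq2 adjusted p = 0.0174). It passed the edgeR test without Smad4 Knockout 1 (-1.27, edgeR adjusted p = 0.0478) and was at -0.53 without Smad4 Knockout 2. Col5a1 was at 5.99 and 5.91 CPM, with 3.03 and 2.22 CPM in Smad4 knockouts (-1.18, SE 0.25, edgeR adjusted p = 0.677, DESeq2 adjusted p = 0.0532).

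The other listed receptor tyrosine kinases gave no call either. Of 32 such genes 25 passed the filter, 8 above and 17 below 0 (median -0.22, and -0.09 without Smad4 Knockout 2). With 0 called by edgeR, DESeq2 or limma, 3 were lower at an unadjusted p under 0.05, against 3.04% of all genes tested. These were Ptk7, a pseudokinase of Wnt and planar polarity signalling, Axl, the receptor of GAS6, and Pdgfra, the last named after its value was seen and at most at 0.4 TPM. Ptk7 was at 149 and 150 CPM in control organoids, with 124 and 116 CPM in Smad4 knockouts (log2 difference -0.31, SE 0.10, edgeR adjusted p = 0.677). Axl was at 184 and 176 CPM, with 130 and 56.1 CPM in Smad4 knockouts (-0.95, SE 0.36, edgeR adjusted p = 0.754), and it passed the test without Smad4 Knockout 1 (-1.68, edgeR adjusted p = 0.0156), with -0.46 without Smad4 Knockout 2.

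Of the 10 other receptors with a mean of at least 5 TPM, Flt4, a receptor of VEGF-C, had its lowest library in Smad4 Knockout 2 as Axl did, at 31.5 and 33 CPM in control organoids, with 27.2 and 11.6 CPM in Smad4 knockouts (log2 difference -0.74, SE 0.37, edgeR adjusted p = 0.832). Flt4 too passed the test without Smad4 Knockout 1 (-1.48, edgeR adjusted p = 0.0331), and its value was -0.23 without Smad4 Knockout 2. Ryk was the most abundant, at 65.9 TPM, with a log2 fold change of -0.02 (SE 0.10). The remaining ones, Lmtk2, Kit, Styk1, Tyro3, Ror2 and Ltk, had mean levels from 6.67 TPM (Ltk) to 39.7 TPM (Lmtk2) and log2 fold changes from -0.22 (Kit, the receptor of stem cell factor) to 0.25 (Styk1). Kit was at 0.04 without Control 2, and Styk1 at 0.10.

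**Figure D4:**
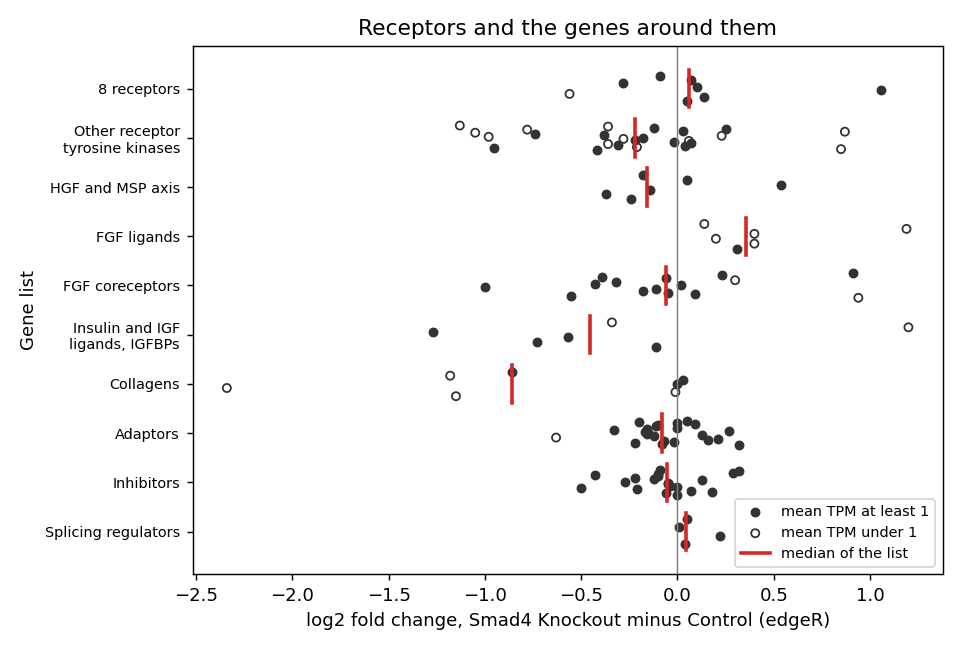
Log2 fold change (Smad4 Knockout minus Control, edgeR) of the tested genes in each list; each point is a gene, filled where its mean is at least 1 TPM and open below that, and red bars are list medians. The medians of the adaptors and inhibitors lie close to 0, with single genes from -0.63 to 0.32 and from -0.50 to 0.32. The list medians run from -0.86 (collagens) to 0.35 (FGF ligands).

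Adaptors and inhibitors that act directly behind these receptors had list medians near 0. All 23 adaptors and proximal effectors passed the filter, 9 above and 14 below 0 (median -0.08), with 0 called by edgeR, DESeq2 or limma. At an unadjusted p under 0.05, 1 was lower, against 3.04% of all genes tested. Ptpn11 (the phosphatase SHP2), Crk and Src were the most abundant, at a mean of 84.2, 72.4 and 69.2 TPM. The gene with the smallest p was Pik3r2, a regulatory subunit of PI3-kinase, at 72 and 67.9 CPM in control organoids, with 58.5 and 53.2 CPM in Smad4 knockouts (log2 difference -0.33, SE 0.11, edgeR adjusted p = 0.697). Its relative Pik3r1 was at 48.1 and 55.3 CPM, with 58.3 and 66 CPM in Smad4 knockouts (0.27, SE 0.13, edgeR adjusted p = 0.819). The 2 subunits thus differed in sign. For both the genotypes did not overlap, as in 47.8% of the adaptors and 36.9% of all genes tested.

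Of the 20 inhibitors all passed the filter, 5 above and 15 below 0 (median -0.05), with 0 called by edgeR, DESeq2 or limma. At an unadjusted p under 0.05 there were 0, against 6.36% of all genes tested. Lrig1, which promotes the breakdown of receptors, Cblc, a ubiquitin ligase, and Ptpn2, a phosphatase, were the most abundant, at a mean of 52.2, 51.6 and 48.7 TPM. Grb14, an adaptor that inhibits the insulin receptor, was at 8.32 and 8.66 CPM in control organoids, with 6.65 and 5.97 CPM in Smad4 knockouts (log2 difference -0.43, SE 0.17, edgeR adjusted p = 0.785), and Spred3 at 3.06 and 3.68 CPM, with 2.59 and 2.17 CPM in Smad4 knockouts (-0.50, SE 0.26, edgeR adjusted p = 0.832). For both, each knockout library lay under each control, as in 30% of the inhibitors and 18.6% of all genes tested.

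The genes of these lists whose pattern over the 4 libraries was most like that of each receptor were found by the root mean square difference of log2 CPM after centring each gene on its own mean, among 111 candidates. For Igf1r it was Spred2, an inhibitor of RAS signalling (0.0494), at 29.6 and 45.8 CPM in control organoids, with 40.9 and 24.5 CPM in Smad4 knockouts. For Insr it was Rbfox2 (0.0403), for Mst1r Esrp2 (0.0731), for Met Col4a1 (0.027), for Ddr1 Lrig1 (0.0351), for Fgfr3 Nck1 (0.00567) and for Fgfr1 Lmtk3 (0.154). For Fgfr2 the nearest was the scarce Ddr2, at 0.238, the largest of the 8 distances. With 4 libraries such likeness is a description only.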

How the data were processed

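RNA from 4 organoid libraries (2 Control, 2 Smad4 Knockout) was prepared with a stranded total RNA kit, per the labels' protocols. Per the submitters' processing notes the tools were bcl2fastq 2.20.0, Trimmomatic, HISAT2 2.1.0 and StringTie 2.1.3b on mm10; no source used here gives the strand setting of the counting. Each deposited file gives, per gene, an estimated count in whole numbers, FPKM and TPM made by the authors. 1 further FPKM column, identical at all 45777 genes, was not used. Gene symbols turned into dates were restored by gene ID for 26 genes.

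The deposited counts were tested with edgeR 4.0.16 in R 4.3.3: filterByExpr (minimum count 10), TMM, quasi-likelihood test of Smad4 Knockout against Control, Benjamini-Hochberg over 18115 genes, threshold 0.05. The biological coefficient of variation was 26.1%. Alternatives were DESeq2 1.42.0, limma 3.58.1 with trend on log2(TPM + 1), DESeq2 size factors in edgeR, no filter, 504 mitochondrial, ribosomal protein and histone genes left out, and each library left out. Levels of different genes were compared as deposited TPM, and ratios were repeated on the deposited FPKM. A count of 0 allows up to 3 counts, for counting error only. The scripts were tested on simulated data.

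Members and lists were chosen with earlier results of these data known. From each list the text names the 3 genes with the highest mean TPM, the 2 with the smallest p, ligands with a mean of at least 1 TPM, and other receptors with at least 5 TPM; from each marker list the 3 highest and those at 0, except 1 gene that is not reported here. Protein sequences were not used here.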

Additional observations from a re-analysis of the deposited data

How the results depend on the processing

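With 2 libraries a genotype, 1 library decides several values. edgeR called 0 genes higher and 0 lower on all 4 libraries (603 and 550 at an unadjusted p under 0.05), DESeq2 called 99 higher and 34 lower, and with 1 library left out edgeR called from 0 to 48 higher (1 without Control 1, 48 without Smad4 Knockout 1) and from 0 to 44 lower. Smad4 passed with DESeq2 (-0.88, adjusted p = 4.79e-08). With 1 library left out, the log2 fold change ran from -0.03 to 0.30 for Mst1r (below 0 without Smad4 Knockout 2), from -0.74 to 0.09 for Igf1r (0.09 without Control 2, 0.08 without Smad4 Knockout 2), from -0.10 to 0.27 for Insr (-0.10 without Control 1, -0.04 without Smad4 Knockout 1) and from 0.16 to 1.62 for Fgfr2, which passed without Smad4 Knockout 1. List medians ran from -0.01 to 0.07 for the 8 receptors, from -0.32 to -0.09 for the other receptor tyrosine kinases, from -0.29 to -0.11 for the HGF and MSP list, from 0.09 to 0.61 for the FGF ligands, from -0.13 to 0.03 for the FGF coreceptors, from -1.07 to -0.21 for the insulin and IGF list, from -1.27 to -0.25 for the collagens (0.00 over chains with a mean of at least 1 TPM), from -0.14 to 0.00 for the adaptors, from -0.11 to 0.00 for the inhibitors and from -0.01 to 0.15 for the splicing regulators. The collagen value of 0.00 rests on Col4a1, Col4a2 and Col8a1 alone. The cause of these ranges was not tested, except that such fits hold fewer samples and filter the genes anew. A list median can therefore rest on other genes than in the main fit. The other normalization, the fit without a filter, limma and the fit without 504 abundant genes turned the direction of no receptor they tested and made no call; limma did not test Fgfr1. No paired analysis was possible because the replicate numbers only follow the order of the samples and pair nothing. The planned description of protein sequences was not run. Low counts limit Fgfr1 most, at 166 to 320 counts a library.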
